A study of Homo sapiens with 8 samples.

Results

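Complement component C3 and 8 further genes of the complement system, namely CFB, CFI, C1R, C1S, SERPING1, CD46, CD55 and CD59, were followed in human esophageal squamous cell carcinoma (ESCC) cells after knockdown of the LIM-homeodomain transcription factor LHX2. The 9 genes were taken by symbol from 26008 genes measured in KYSE30 and 25561 in KYSE510, and each symbol matched 1 gene in either line. KYSE30 and KYSE510 are established ESCC cell lines, and in each line cells in which an shRNA targets LHX2 (shLHX2, labelled LHX2 knockdown) were compared with cells given the control hairpin shNC (labelled WT). All 8 libraries thus came from cells given an shRNA, by lentivirus followed by drug selection, with 2 libraries per group and line. The labels do not say whether the 2 libraries of a group came from separate cultures or whether both carry 1 hairpin, so that p-values measure the spread between these libraries, which may be technical. The list was built around C3, which was chosen by its fold change between shLHX2 and shNC in KYSE30, among the largest decreases of that line. The other genes are its partners and regulators in the pathway, picked with earlier results of these data known. The change of C3 in KYSE30, and its difference from KYSE510, are therefore given as a description without a test.

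Complement is a cascade of plasma and cell surface proteins that tags and lyses targets. C1R and C1S are the serine proteases of the C1 complex, which starts the classical pathway, and SERPING1 is the serpin that inhibits them. All pathways meet at C3, whose cleavage product binds covalently to nearby surfaces, and CFB provides the protease of the alternative pathway convertase that cleaves more C3. CFI is the protease that degrades the bound fragment, and it needs a cofactor such as CD46. CD46, CD55 and CD59 protect host cells: CD46 as a cofactor for CFI, CD55 by dissociating the convertases and CD59 by blocking the membrane attack complex. The liver supplies most plasma complement, while epithelial cells also make several components.

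The promoters of CFB and CFI are shown because CFB had among the widest gaps in level between both lines and CFI moved in different directions in them. RefSeq promoter windows on GRCh38.p14 ran from 250 bases before to 50 bases after a transcription start. They were found for 6 of the 9 genes, namely CFB, CFI, C1R, CD46, CD55 and CD59. None was found for C3, C1S or SERPING1, whose promoters were not searched. There were 11 windows in all. Those of CFB (chr6:31945845-31946144, plus strand) and CFI (chr4:109801950-109802249, minus strand) are printed 5′ to 3′, with matches to the searched motifs in capitals.
CFB: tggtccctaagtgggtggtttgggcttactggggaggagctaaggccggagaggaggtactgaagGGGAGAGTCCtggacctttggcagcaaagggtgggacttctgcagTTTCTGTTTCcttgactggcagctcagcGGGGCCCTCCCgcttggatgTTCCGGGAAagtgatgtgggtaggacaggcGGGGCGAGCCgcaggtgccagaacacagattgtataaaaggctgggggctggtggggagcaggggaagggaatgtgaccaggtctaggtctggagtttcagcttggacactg
CFI: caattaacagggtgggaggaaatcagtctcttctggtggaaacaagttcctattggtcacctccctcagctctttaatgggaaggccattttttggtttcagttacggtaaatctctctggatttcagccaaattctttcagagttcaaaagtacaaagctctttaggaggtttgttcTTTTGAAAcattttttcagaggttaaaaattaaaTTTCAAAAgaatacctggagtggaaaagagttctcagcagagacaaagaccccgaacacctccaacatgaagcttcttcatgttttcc

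Motifs were searched on both strands and may overlap. A loose form of the NF-kB motif matched the CFB window at 4 positions, and 58.7% of all 35116 windows of this length hold it. The CFB window also held the STAT motif TTCNNNGAA, which 7.66% of all windows hold, and the interferon response motif, which 3.57% hold. The CFI window held 2 matches to the C/EBP motif TTNNGNAA, a motif present in 36.8% of windows. The homeodomain core TAATTA, of the kind that LIM-homeodomain factors read, was in 0 of the 11 windows and in 4.84% of all windows. The 11 windows do not include C3. A match is a description of letters only.

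The values used below are normalized counts, that is reads per gene divided by a size factor of the library. Where 2 against 2 libraries do not differ, the groups still fail to overlap in a share of 0.333 of cases, counting both directions. Over the genes whose reads could be recovered, the libraries held between 15952632 and 20983494 reads. The genes left out hold 7.39% of the summed level in KYSE30 and 9.18% in KYSE510. LHX2 itself was low in both lines. In KYSE30 its normalized counts were 29.7 and 50.2 in the shLHX2 libraries and 99.2 and 118 in the shNC libraries, and it fell by 1.48 ± 0.26 on the log2 scale (SE, adjusted p = 0.000218). In KYSE510 LHX2 had 13 and 1 reads in the shLHX2 libraries and 14 and 8 in the shNC libraries, so the groups overlapped and the knockdown could not be seen at this depth. The authors checked the knockdown in both lines by other assays, qRT-PCR and Western blotting, which are not part of these data. The squamous markers KRT5, KRT14, KRT6A, TP63, CDH1, EPCAM and DSG3 were read at a mean of 10 or more in both lines. KRT5 only just passed that level in KYSE30, at a mean of 12.9, and was at 30946 in KYSE510. The hepatocyte markers ALB, APOA1, APOB, TTR and SERPINA1 summed to between 0 and 4.23 normalized counts in KYSE30 and between 15.7 and 20.8 in KYSE510. Nearly all of the KYSE510 sum was SERPINA1, at a mean of 18.5, beside APOA1 at 0.471.

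C3 was strongly reduced in the KYSE30 knockdown cells. Its normalized counts were 43.6 and 49.2 in the shLHX2 libraries and 626 and 607 in the shNC libraries. The mean was 46.4 ± 3.98 (SD, n = 2) in shLHX2 and 617 ± 13.9 (SD, n = 2) in shNC, which is 7.53% of the control level or 13.3-fold lower. Both knockdown libraries lay far below both control libraries, and the log2 fold change was -3.72 ± 0.14 (SE). Among the 11177 genes with a mean of at least 100 in KYSE30, C3 had the rank 2 from the lowest log2 fold change. In KYSE510 the C3 transcript stayed abundant, with 12074 and 12060.5 normalized counts in shLHX2 and 14475 and 13295 in shNC. The groups did not overlap there either, but the step was small, at 86.9% of the control level, with a log2 fold change of -0.20 ± 0.04 (SE, adjusted p = 2.88e-05). The change in KYSE30 minus that in KYSE510 was -3.52 ± 0.08 (SE) on the log2 scale.

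**Figure D1:**
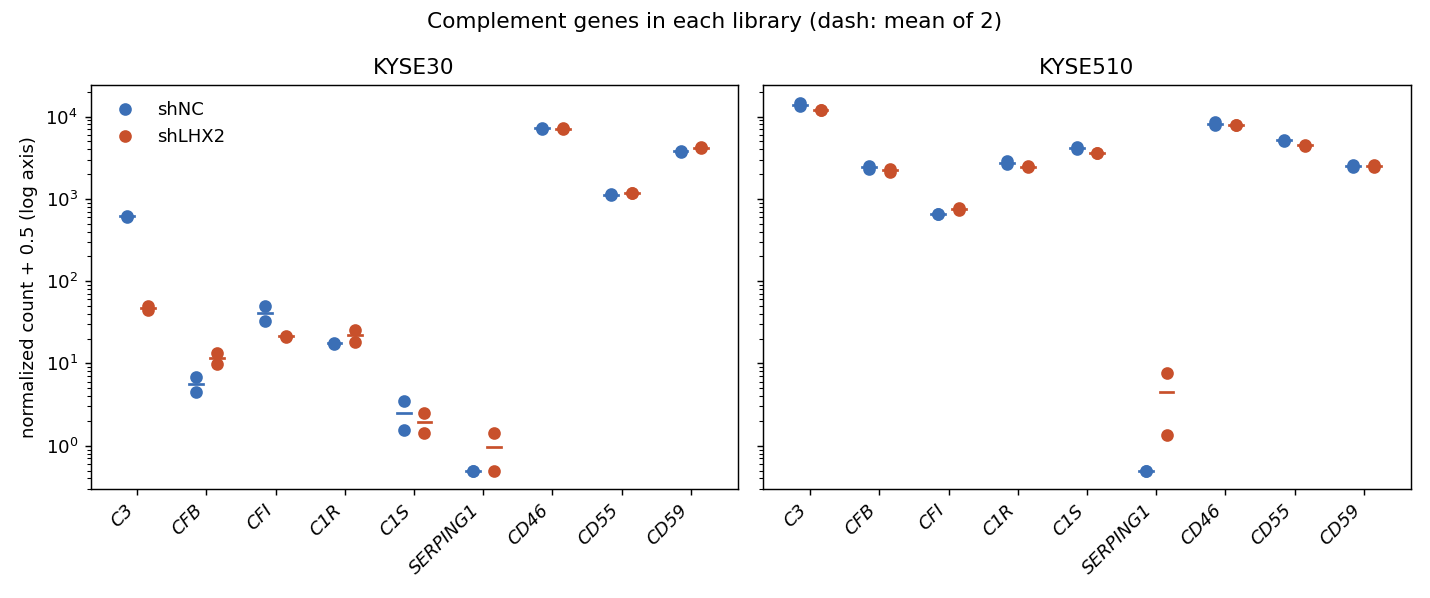
Normalized counts plus 0.5 of the 9 complement genes, on a log axis, in each of the 2 shNC (blue) and 2 shLHX2 (red) libraries of KYSE30 and KYSE510, with a dash at the mean of 2. C3 in KYSE30 drops from 617 to 46.4 on average, while every gene but SERPING1 lies at 649.9 or above in all KYSE510 libraries.

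These are bulk RNA samples of cultured ESCC lines, which the paper reports were identified by short tandem repeat analysis. No other cell type was part of the design. A shift in the make-up of a line and less RNA per cell cannot be told apart here. Sums of genes that mark other cell types in tissue moved together with C3 in KYSE30. The leukocyte markers (4 of 5 with any reads, CD3E not listed) summed to between 68.3 and 75.1 in shLHX2 and between 150.1 and 184 in shNC, mostly through CD68. LYZ was lower as well, at 0.928 and 0 in shLHX2 against 18.0 and 11.6 in shNC. CD14 was higher, at 6.49 and 9.04 against 6.01 and 5.28, and PTPRC stayed between 4.02 and 8.46 in all 4 libraries. The endothelial markers summed to between 92.4 and 107 in shLHX2 and between 238 and 249 in shNC, mostly through CDH5, with PECAM1 at 2 reads or fewer in every library. The fibroblast markers (5 of 6 with reads, DCN not listed) summed to between 246 and 248 against 354 and 372, mostly through COL1A1, with COL1A2 at 1.06 or less. The 7 squamous markers summed to between 13029.5 and 13233 in shLHX2 and between 15821 and 16335 in shNC, with CDH1 as the largest part. Behind this sum, KRT6A went from 751 and 626 in shNC to 221 and 234 in shLHX2. TP63 went from 3049.5 and 3056 to 1663 and 1628. KRT5 dropped from 17.0 and 28.5 to 1.86 and 4.02, while KRT14 climbed from 109 and 138 to 161 and 196. CDH1 and EPCAM were lower in both shLHX2 libraries, and DSG3 overlapped between groups. The part of all these markers in the C3 result was not tested. In KYSE510 the endothelial sums overlapped between groups, and the sums of squamous, leukocyte and fibroblast markers were lower in both shLHX2 libraries. The fibroblast sum was lower there through COL1A1, while COL3A1 was higher, with 74.1 and 62.3 normalized counts in shLHX2 against 26.2 and 43.2 in shNC, and so was LUM, with 11.7 and 13.3 against 3.15 and 2.22.

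Among the other components that activate complement, C1R, C1S and CFB were nearly silent in KYSE30 and abundant in KYSE510. C1R had 17.6 and 25.1 normalized counts in shLHX2 and 17.0 and 16.9 in shNC of KYSE30, and did not pass the test (log2 fold change 0.30 ± 0.43, SE, adjusted p = 0.617). In KYSE510 C1R had 2438 and 2475 in shLHX2 against 2888 and 2626 in shNC and fell by 0.16 ± 0.05 on the log2 scale (SE, adjusted p = 0.00793). Both shLHX2 libraries were below both shNC libraries, but leaving out 1 library raised the adjusted p to as much as 0.136. C1S, the partner protease, had 1, 2, 3 and 1 reads in the 4 KYSE30 libraries and was not tested there. In KYSE510 it had 3565 and 3557 normalized counts in shLHX2 against 3989 and 4226 in shNC and fell by 0.21 ± 0.04 (SE, adjusted p = 0.000239). The groups did not overlap, and C1S passed in all 10 alternatives that gave a value.

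CFB had 9.28 and 13.1 normalized counts in shLHX2 and 4.01 and 6.34 in shNC of KYSE30. Both knockdown libraries were higher, but the mean over the 4 libraries was under 10, the lowest level tested, so no test was made. In KYSE510 CFB had 2286 and 2141 in shLHX2 against 2497 and 2306 in shNC, and the log2 fold change of -0.12 ± 0.05 (SE) did not pass (adjusted p = 0.0733). Without the shNC library with the lower CFB level, it was -0.17 with an adjusted p of 0.00415. SERPING1, which would restrain C1R and C1S, was close to absent. It had 1 read in 1 shLHX2 library of KYSE30 and 0 in the other 3, and 1 and 7 reads in the shLHX2 libraries of KYSE510 with 0 in both shNC libraries. These counts are too few for a test.

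CFI, the protease that inactivates bound C3 fragments, changed in both lines. In KYSE30 it had 20.4 and 21.1 normalized counts in shLHX2 and 32.1 and 49.7 in shNC, a log2 fold change of -0.93 ± 0.36 (SE, adjusted p = 0.0486). That value lies just under the threshold, at 122 reads over 4 libraries, and the shNC libraries differed widely. Without the shNC library at 49.7 the change was -0.62 with an adjusted p of 0.331. The call was also lost without either shLHX2 library, with adjusted p values of 0.12 and 0.103. In KYSE510 CFI had 736 and 781 in shLHX2 against 649.9 and 659.7 in shNC, so it rose by 0.21 ± 0.07 (SE, adjusted p = 0.0212). Here too the call was lost when 1 library was left out, without either shLHX2 library or the shNC library at 649.9, with an adjusted p of 0.0524 to 0.232. The change in KYSE30 minus that in KYSE510 was -1.14 ± 0.25 (SE, adjusted p = 0.00393), and it passed in all 11 alternatives that gave a value.

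The membrane regulators did not reach 1.5-fold in either line. CD46 had 7192 and 7006 normalized counts in shLHX2 and 7341 and 7016 in shNC of KYSE30, and the groups overlapped. Its log2 fold change was -0.02 (95% interval -0.08 to 0.05, adjusted p = 0.729). In KYSE510 CD46 was -0.06 (95% interval -0.13 to 0.02, adjusted p = 0.283), with 7917 and 7809 in shLHX2 and 7867 and 8496 in shNC. These intervals leave room only for small changes of this cofactor. Without the KYSE510 shNC library at 7867, however, CD46 was -0.11 with an adjusted p of 0.00368.

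CD55 had 1161 and 1170.3 normalized counts in shLHX2 against 1123 and 1132 in shNC of KYSE30, a log2 fold change of 0.05 ± 0.05 (SE) that did not pass (adjusted p = 0.509). In KYSE510 it had 4429 and 4466 in shLHX2 against 5038 and 5196 in shNC and fell by 0.20 ± 0.04 (SE, adjusted p = 0.000124). The difference between both lines for this convertase inhibitor was 0.25 ± 0.06 (SE, adjusted p = 0.00472). CD59 had 4243 and 4131 in shLHX2 against 3754 and 3819 in shNC of KYSE30 and rose by 0.15 ± 0.03 (SE, adjusted p = 0.00287). Without the shLHX2 library at 4243, the adjusted p of CD59 was 0.0502. In KYSE510 it had 2573 and 2448 in shLHX2 and 2469 and 2592 in shNC, with overlapping groups and a log2 fold change of -0.01 (95% interval -0.11 to 0.08, adjusted p = 0.882). The difference between both lines for CD59 was 0.16 ± 0.06 and did not pass (SE, adjusted p = 0.0644).

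Counted over the set, 6 of the 9 genes were at a mean of 10 or more in KYSE30, and 2 fell, C3 and CFI, while 1 rose, CD59. Over all 15178 genes tested in that line 20.2% fell and 18.8% rose. Both falling genes also passed the 1.5-fold limit, which 5.71% of all genes passed downward and 4.42% upward. Since C3 belonged to the reasons for choosing the list, nothing is read from its share. In KYSE510 8 genes were tested, of which C3, C1R, C1S and CD55 fell and CFI rose, and 0 reached 1.5-fold. There 17.7% of 14724 genes fell and 15.1% rose, and 3.27% fell and 2.57% rose by at least 1.5-fold. The median log2 fold change of the tested genes without C3 was 0.05 in KYSE30 and -0.12 in KYSE510, beside 0.00 over all genes in either line. In the test of the difference between both lines, 2 of the 5 genes other than C3 passed, CFI and CD55, and 21% of all 13658 genes did.

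**Figure D2:**
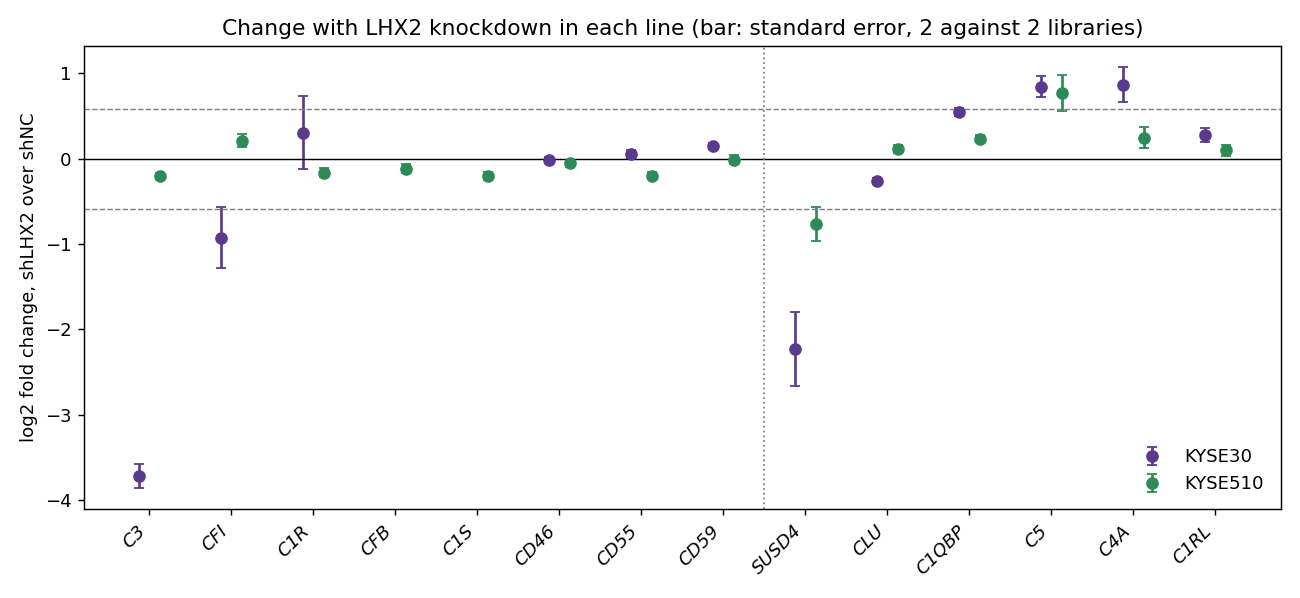
Log2 fold change of shLHX2 over shNC with its standard error (2 against 2 libraries) in KYSE30 (purple) and KYSE510 (green), for the genes of the set on the left of the dotted line and further complement genes on the right. Dashed lines mark 1.5-fold. C3 at -3.72 in KYSE30 stands lowest, and CFI lies at -0.93 in KYSE30 and 0.21 in KYSE510.

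Several of these genes also differed widely in level between both lines. The tables of both lines were normalized separately, so levels across them are set as normalized counts per 1000000 of each table's total and are not tested. In the shNC libraries C3 was 22.2-fold, C1R 160.2-fold and CFI 15.8-fold higher in KYSE510 than in KYSE30. For CFB, with 33 reads over all KYSE30 libraries, the ratio in the shNC libraries was 458, and over all libraries, knockdown included, it was 277 (95% exact counting interval 197 to 402), and for C1S, with 7 reads, the ratio over all libraries was 2157 (1047 to 5367). These intervals cover counting error only. CD55 was 4.48-fold higher in KYSE510, CD46 1.12-fold higher, and CD59 1.52-fold higher in KYSE30. Thus 5 of the 9 genes were at least 10-fold higher in KYSE510, where 3.75% of 15745 genes with a mean of at least 10 in either line were.

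As normalized counts per 1000000 and per kb of exon, the order within a line was also different. In the shNC libraries of KYSE510 C3 stood first at 86.8, followed by CD46 at 48.9, CD55 at 45.1, C1S at 33.1, C1R at 24.4, CD59 at 12.7 and CFI at 6.94 and 7.05 in its libraries. CFB, at 26.0 and 24.0, overlapped with C1R, at 25.6 and 23.2, so these neighbours could not be ordered. In the shNC libraries of KYSE30 the membrane regulators led, with CD46 at 43.5, CD59 at 19.3 and CD55 at 10.1, ahead of C3 at 3.91, CFI at 0.443, C1R at 0.152, CFB at 0.0547 and C1S at 0.0166. In the KYSE30 shLHX2 libraries C3 was at 0.276 and 0.312, beside 0.221 and 0.228 for CFI.

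**Figure D3:**
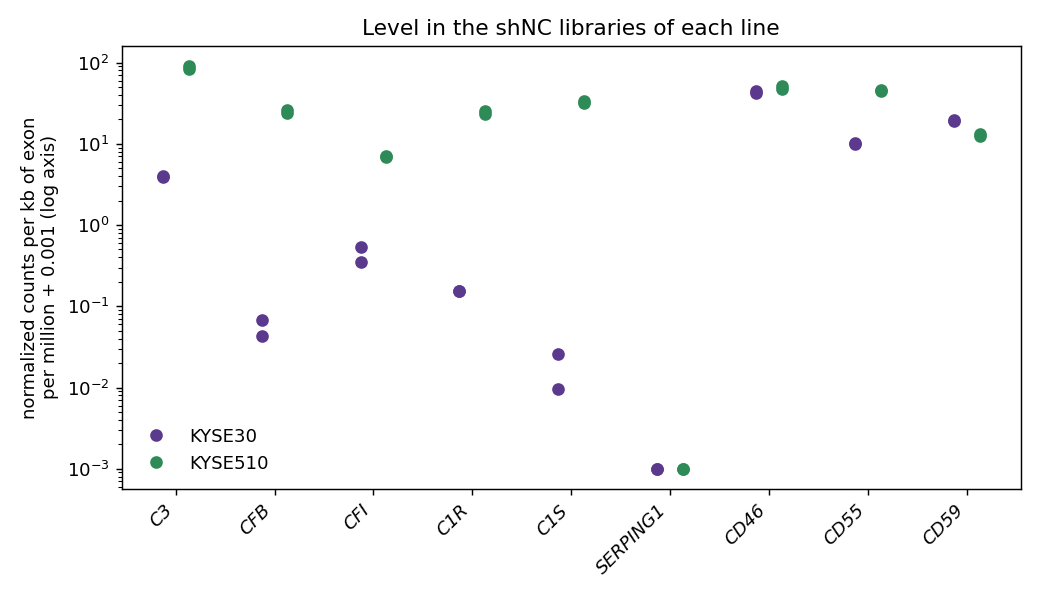
Normalized counts per 1000000 and per kb of exon, plus 0.001, on a log axis, in the 2 shNC libraries of KYSE30 (purple) and of KYSE510 (green). CD46 lies near 43.5 and 48.9 in both lines, whereas C1S lies at 0.0166 in KYSE30 and 33.1 in KYSE510.

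A wider list of 51 complement genes outside the set held 12 tested genes in KYSE30, of which 2 fell and 4 rose, and 15 in KYSE510, of which 1 fell and 2 rose. Over all genes tested, 20.2% fell and 18.8% rose in KYSE30, and 17.7% fell and 15.1% rose in KYSE510. The list's median log2 fold change was 0.09 in KYSE30 and 0.13 in KYSE510. SUSD4, a membrane protein with complement control domains, fell in both lines. It had 6.49 and 13.1 normalized counts in shLHX2 against 48.1 and 42.3 in shNC of KYSE30 (log2 fold change -2.23 ± 0.44, SE, adjusted p = 0.000522). In KYSE510 it had 67.5 and 67.4 against 108 and 122 (-0.76 ± 0.20, SE, adjusted p = 0.00222), a call that was lost in the fit of all 8 libraries (adjusted p = 0.0765). C5, which starts the terminal pathway, rose in both lines, from 168 and 179 in shNC to 294 and 329.5 in shLHX2 of KYSE30 (0.84 ± 0.12, SE, adjusted p = 2.14e-05). In KYSE510 C5 had 119.9 and 99.1 in shLHX2 against 53.5 and 76.5 in shNC (0.76 ± 0.21, SE, adjusted p = 0.00439). Without the shLHX2 library at 119.9 or the shNC library at 53.5, the C5 call in KYSE510 was lost, with adjusted p values of 0.134 and 0.0744. C4A was called higher in KYSE30 (0.87 ± 0.21, SE, adjusted p = 0.00269), but C4A and C4B are nearly identical, so the split of reads between them is uncertain, and without the shLHX2 library at 171 the adjusted p was 0.0862. The other complement genes past the test changed by less than 1.5-fold: CLU fell in KYSE30, C1RL rose in KYSE30 and C1QBP rose in both lines.

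Of 15 transcription factors known to act on complement genes, 4 rose and 2 fell in KYSE30, and 2 rose and 5 fell in KYSE510, beside 18.8% and 20.2% of all genes in KYSE30 and 15.1% and 17.7% in KYSE510. Only CEBPA, a C/EBP factor of differentiation, reached 1.5-fold. It fell by 0.98 ± 0.13 in KYSE510 (SE, adjusted p = 9.27e-08), from 293 and 289 normalized counts in shNC to 134 and 161 in shLHX2, and by 0.37 ± 0.08 in KYSE30 (SE, adjusted p = 0.00205). Of the NF-kB subunits, RELA rose by 0.42 ± 0.05 (SE, adjusted p = 2.95e-06) and NFKB1 by 0.32 ± 0.07 (SE, adjusted p = 0.00127) in KYSE30.

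STAT3 also rose in KYSE30, by 0.14 ± 0.03 (SE, adjusted p = 0.00276), and IRF1 in KYSE510, by 0.14 ± 0.05 (SE, adjusted p = 0.0393). CEBPB, which mediates acute phase induction, and JUN fell in KYSE510, by 0.42 ± 0.05 (SE, adjusted p = 1.59e-08) and 0.38 ± 0.04 (SE, adjusted p = 5.94e-09). Of the nuclear receptors, NR1H2 fell in both lines and NR1H3 rose in KYSE510, while RXRA rose by 0.09 ± 0.03 in KYSE30 (SE, adjusted p = 0.0137) and fell by 0.16 ± 0.04 in KYSE510 (SE, adjusted p = 0.00181). The difference between both lines passed for 8 of the 15 factors and for 21% of all genes tested.

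The 6 genes whose pattern was most like that of C3 were DSE, MTUS1, PNPLA6, KLHL2, ADAMTS1 and MRFAP1L1, with Pearson's r between 0.996 and 0.999 over log2 values centred within each line. This is a description over 8 libraries, in each of which all genes share 1 size factor, and 295 of 11245 genes reached an r of 0.95. All 6 were lower in KYSE30, with log2 fold changes between -1.55 and -0.40, all smaller than that of C3. That they fell there follows from how they were picked, because the values of C3 varied mostly through its fall in KYSE30. In KYSE510 their log2 fold changes lay between -0.096 and -0.0004.

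On hg38 (GENCODE 29) C3 lies on chromosome 19 at 6677704-6730562, minus strand. The gene shares its span with GPR108, without shared exons. Neighbours of C3 were looked at after its values were seen, as the 2 nearest tested protein-coding genes on each side that do not overlap it. GPR108 was therefore not among them, and the change of GPR108 is not given here. In KYSE30 TNFSF9, DENND1C, TRIP10 and SH2D3A had log2 fold changes between -0.31 and 0.64, far from the -3.72 of C3. CFI lies on chromosome 4 at 109740694-109802179, minus strand, and CFB on chromosome 6 at 31945650-31952084, plus strand. C1S (chromosome 12, 6988259-7071032, plus strand) and C1R (chromosome 12, 7080199-7092607, minus strand) are close neighbours. CD55 (207321376-207386804) and CD46 (207752057-207795513) lie on the plus strand of chromosome 1, CD59 (33703010-33736491, minus strand) and SERPING1 (57597387-57614853, plus strand) on chromosome 11. Annotated exons overlap between CFB and C2, C1R and C1RL, and C1S and EMG1, and between CFI or CD59 and a gene known by a clone name. How reads were counted is not stated in any source used here, so reads in those stretches may be shared or left out.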

How the data were processed

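RNA was extracted with Trizol and libraries were made with a TruSeq kit, per the labels, which also name hg38 and DESeq. No source used here gives the aligner or the counting. The authors deposited 1 table per line with a mean normalized count over the 4 libraries, which is a signal, beside the authors' log2 fold change and its log2 standard error, a statistic, p-values and a regulation call. No column holds 1 library. The authors' test columns are not reported or compared with.

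Whole reads of each library were recovered from the deposited mean, which is a sum of reads times 1 step per library. Genes with 1 read give the steps. The sign and value of the deposited log2 fold change and, added after the tables were seen, its standard error served as a key to choose among whole-number solutions. The values tested here are thus not independent of those columns: the mean alone gave 1 solution for 99.7% of genes in KYSE30 and 76.1% in KYSE510, where C3 had 23770 such solutions and 1 that met the key. Of the genes of the set, only CFI and SERPING1 were fixed by the mean alone in KYSE510, and all 9 were in KYSE30. The width allowed for a match to the key was set by mean level after looking at the tables. In all 99.96% and 99.8% of genes had 1 solution, and 11 and 49 genes, with 7.39% and 9.18% of the summed level, were left out. Size factors recomputed from these reads came within 0.0158% of the steps. Libraries A and B of a group cannot be matched to the replicate numbers of the labels.

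Log2(normalized count + 0.5) of genes with a mean of at least 10 was tested with limma 3.58.1 (trend, R 4.3.3) on the 4 libraries of a line, or on all 8 for the difference between lines, with Benjamini-Hochberg adjustment over all genes tested. Fold changes of low genes are understated on this scale. Genes passed at an adjusted p under 0.05 and were called with 1.5-fold as well. 95% intervals take the normal quantile. The fit was also run on simulated reads with the same spread setting for every gene. That simulation held no changes under 1.5-fold and left out the recovery of reads, so nothing is read from it here. Alternatives were other scalings, low-value filters, a pseudocount of 5, voom weights, all 8 libraries in the fit and leaving out each library. Exon lengths are unions of GENCODE 29 exons. The genes, lists and tests were chosen with earlier results of these data known. Named were all 9 genes, LHX2, called genes of the wider list, transcription factors past the test and the 6 genes most like C3 at a mean of at least 50 in both lines. A few genes of the lists are not reported here and not counted in them.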

Additional observations from a re-analysis of the deposited data

Results flagged for a closer look

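The knockdown change differed between KYSE30 and KYSE510, by the test of the difference itself and by at least 1.5-fold, for 5 of the genes examined besides C3. Of all 13658 genes tested, 21% passed that test at any fold change. The share that also reached 1.5-fold was not worked out, so nothing is read from the count. The change in KYSE30 minus that in KYSE510 was -1.14 for CFI (adjusted p = 0.00393) and -1.46 for SUSD4 (adjusted p = 0.0277) on the log2 scale. The SUSD4 difference lost its call in 6 of 11 alternatives, with an adjusted p of up to 0.0957. For C3 the same difference was -3.52, given as a description without a test since C3 was chosen by its KYSE30 value. Among the transcription factors it was 0.62 for CEBPA (adjusted p = 0.00775), 0.64 for CEBPB (adjusted p = 0.000272) and 0.62 for FOS (adjusted p = 0.0295), all from limma. FOS passed in neither line alone, with log2 fold changes of 0.32 in KYSE30 and -0.29 in KYSE510.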

How the results depend on the processing

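Of 478 comparisons of a value or count with its alternative, 430 kept direction and side of the threshold, or a count within 1.5 times, 26 lost the call, 11 gained one, 1 count moved and 10 values turned sign. The 10 passed neither before nor after. With 1 library left out, CD46 in KYSE30 lay between -0.0484 and 0.0168 and CD59 in KYSE510 between -0.0477 and 0.0241, and the difference between the lines between -0.1767 and 0.3342 for C5 and between -0.015 and 0.0959 for CD46. CD59 in KYSE510 was also 0.0132 and 0.0196 under the scalings by total reads and by the 75th percentile. The number of genes called higher in KYSE510, 379, lay between 250 and 431 when 1 library was left out. C3 in KYSE30 lay between -3.81 and -3.60 in all 11 alternatives, and C3, C1S and CD55 in KYSE510 passed in each alternative that gave a value. Fitted with all 8 libraries, CFI, C1R and SUSD4 in KYSE510 no longer passed (adjusted p = 0.404, 0.42 and 0.0765), and CFI there was also lost without a filter (0.0538). CFI in KYSE30 was also lost without a filter (0.12), with voom weights (0.0507) and at the 75th percentile scaling (0.0528). The difference of SUSD4 between the lines lost its call without any 1 of 6 libraries (adjusted p up to 0.0957). No paired analysis was possible because the worked-back libraries carry no replicate number of the labels. Depth limits CFB, C1S and SERPING1 in KYSE30, and LHX2 and SERPING1 in KYSE510.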
